A study of Mus musculus with 6 samples.

Results

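The genes described here encode subunits of complex I, the NADH:ubiquinone oxidoreductase at the entrance of the mitochondrial respiratory chain, in hematopoietic stem cells (HSCs) with and without the ribosomal protein Rpl22. They were chosen by a rule on names, with earlier results of these data known. Of the 34573 gene rows in the count table, 38 had the symbol Ndufab1 or a symbol made of Nduf, 1 of the letters a, b, c, s and v, and a number. In 36 of them the product is a subunit of the complex. The remaining pair is Ndufa4, whose product is now counted with complex IV, and its paralog Ndufa4l2.

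Complex I takes electrons from NADH at the tip of an arm that reaches into the mitochondrial matrix, passes them along a chain of iron-sulfur clusters to ubiquinone, and uses the energy to pump protons through a second arm that lies in the inner membrane. A catalytic core, conserved from bacteria, does this work; its matrix subunits are nuclear genes and its membrane subunits are mitochondrial genes. Around the core sit the accessory subunits, all nuclear, which are needed for assembly and stability. HSCs at rest are known to rely little on respiration, and their differentiation is accompanied by greater use of it.

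RNA sequencing was done on lineage-negative CD48-CD150+ HSCs sorted from the bone marrow of young adult mice, with 3 libraries from Rpl22-/- mice and 3 from Rpl22+/+ mice. Both genotypes had been backcrossed to C57BL/6, and the deletion was carried in every cell, so the HSCs came from marrow that lacked Rpl22 throughout. Libraries were made from polyadenylated RNA, and the labels do not say whether a library came from 1 animal or from a pool. Differences were tested with the edgeR quasi-likelihood test over 14004 genes with enough reads, and a gene was said to rise or fall where its p, adjusted over all of them by Benjamini-Hochberg, was below 0.05. The p-values measure the spread between these libraries, which may be partly technical.

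The libraries held 9321123 to 13385850 reads on genes. Rpl22 had 449, 527 and 546 reads in the Rpl22-/- libraries against 6890, 7001 and 5031 with the gene intact (log2 fold change -3.75, SE 0.105, adjusted p = 2.97e-12). On the leading principal component, which carried 42.1% of the variance, the genotypes were apart, with Rpl22-/- replicate 1 nearest to the Rpl22+/+ libraries. The 10 HSC markers examined were all measured, and their summed level, in CPM (a gene's reads relative to the total on genes in its library, with TMM factors for library composition), was 2232 to 2444 CPM in Rpl22-/- and 2411 to 2478 CPM in Rpl22+/+. Cd48, the antigen gated against, was at 6.52 ± 0.573 CPM (SD, n = 3) in Rpl22-/- and 5.70 ± 1.39 CPM (SD, n = 3) in Rpl22+/+.

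Some nuclear complex I transcripts were more abundant in Rpl22-/- HSCs. The nuclear genes that rose were accessory subunits, which made up 28 of the 37 genes tested. Among the mitochondrially encoded core genes, described below, 4 rose and 1 fell. Of the 38 genes, 37 had enough reads to test, and 8 of them rose (Ndufa1, Ndufa3, Ndufa7, Ndufa11, Ndufa12, Ndufb3, Ndufs4 and Ndufs6), by 1.46-fold to 2.14-fold. Among all genes tested, 3.28% rose. None of the 37 fell, against 2.29% of all genes, and DESeq2 and limma-voom called none lower either. At an unadjusted p below 0.05, 19 were higher and 2 lower, as were 11.6% and 10.7% of all genes tested. The estimate was above 0 for 31 of the 37, with a median log2 fold change of 0.22, where the median over all genes tested was -0.01. Over 18 other analyses (other scalings, tests and filters, trends removed or 1 library left out) the number above 0 among these 37 ran from 24 to 34. The median was 0.12 with each library's trend on transcript length removed, 0.055 once the GC trend was taken out as well, and 0.13 without Rpl22-/- replicate 2. In 18 of the 37 the Rpl22-/- libraries all lay above the Rpl22+/+ libraries, which held for 13.3% of all genes, and in 2 they all lay below, which held for 13.6%. Ndufa4l2 was not tested: it had 0, 1 and 2 reads in Rpl22-/- and 1, 0 and 0 in Rpl22+/+.

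**Figure D1:**
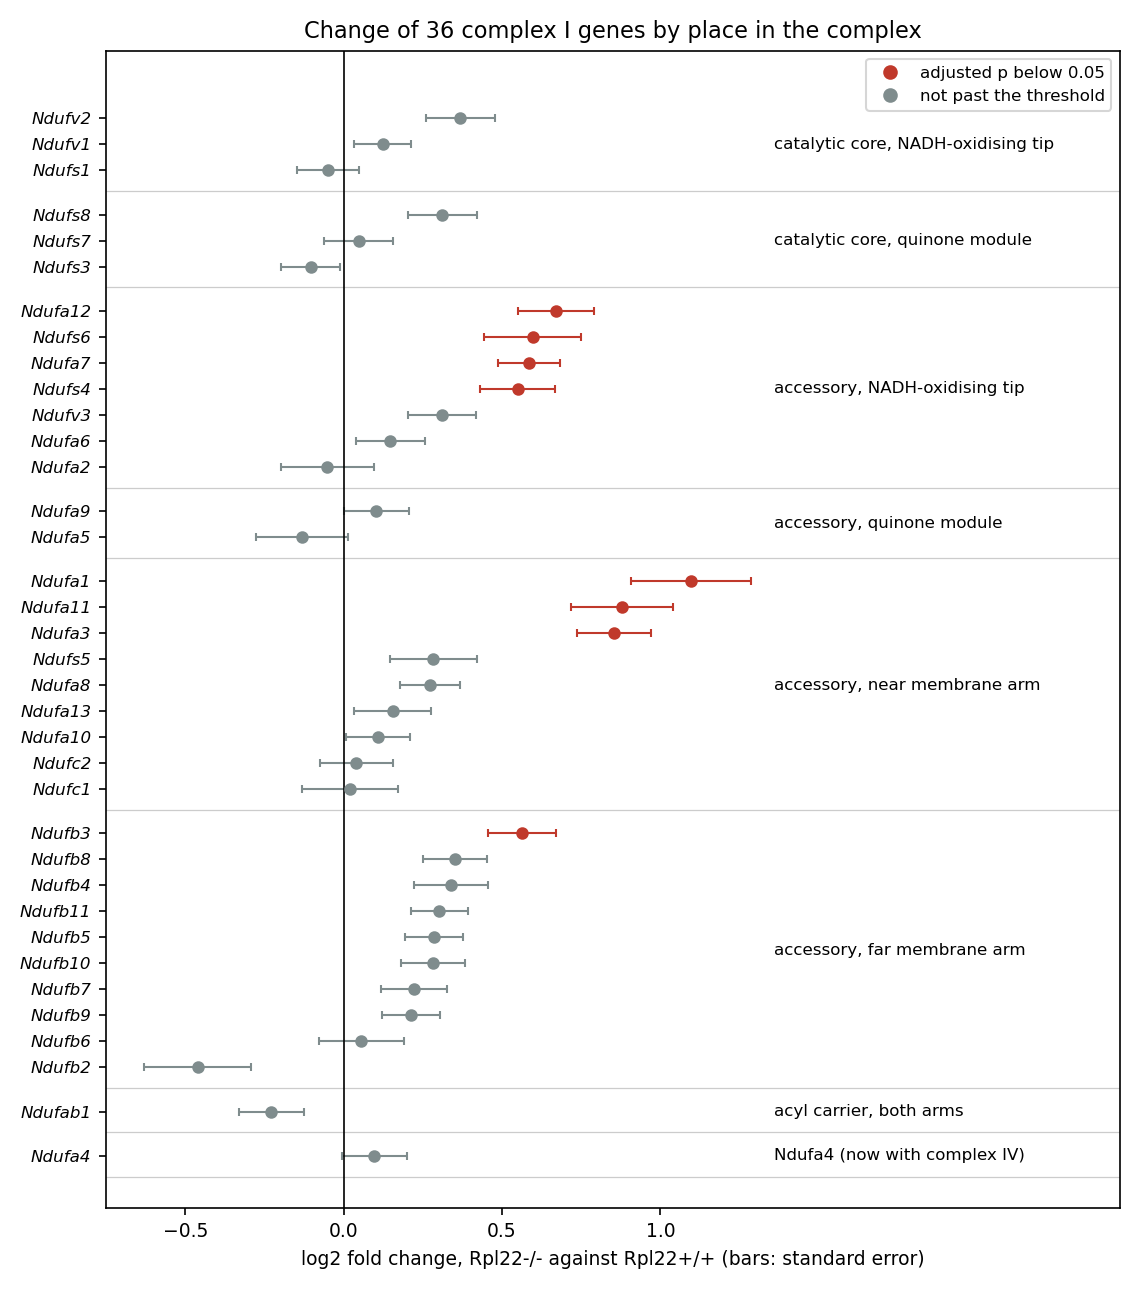
Log2 fold change of 36 of the 37 genes tested (x axis, Rpl22-/- against Rpl22+/+, bars are standard errors), arranged by place in the complex. The 8 genes past the threshold (red) are accessory subunits of the NADH-oxidising tip and the membrane arm. Of the 37 genes tested, 28 are accessory subunits. The nuclear core subunits run from -0.10 to 0.37.

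The 36 nuclear subunits summed to 2066, 2380 and 2046 CPM in the Rpl22-/- libraries. In the Rpl22+/+ libraries they summed to 1891, 1860 and 1717 CPM. All 3 Rpl22-/- libraries were above all 3 Rpl22+/+ libraries, by a ratio of the means of 1.19. The 8 genes that rose carried much of this, since their sum was 468 ± 63.8 CPM (SD, n = 3) against 286 ± 28.8 CPM (SD, n = 3), a ratio of 1.64. The 7 nuclear core subunits together were at 576 ± 45.7 CPM and 532 ± 26.1 CPM (SD, n = 3 each), a ratio of 1.08, and their libraries overlapped. These sums leave out the mitochondrially encoded subunits. Those summed to 7730, 9695 and 9016 CPM in Rpl22-/- and 7193, 6824 and 6226 CPM in Rpl22+/+.

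The catalytic core of the matrix arm has 7 nuclear genes, and none of them passed the threshold. In edgeR 2 had an unadjusted p below 0.05, both higher (11.6% of all genes tested), DESeq2 called 1 (Ndufv2) and limma-voom called 0. The median log2 fold change of the 7 was 0.07, and -0.01 when each library's trends on transcript length and GC content were removed.

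At the NADH-oxidising tip, Ndufv1 carries the flavin that accepts the electrons, Ndufv2 a neighbouring iron-sulfur cluster, and Ndufs1 the clusters that follow. Ndufv2 was nearest to the threshold, and it passed in 7 of the 18 other analyses. It was at 96.4, 128 and 111 CPM in the Rpl22-/- libraries and 93.3, 91.1 and 74.9 CPM in the Rpl22+/+ libraries. The genotypes did not overlap, but Rpl22-/- replicate 1 lay close to the Rpl22+/+ libraries (log2 fold change 0.37, SE 0.110, adjusted p = 0.0612). The estimates for Ndufv1 (0.12, adjusted p = 0.450) and Ndufs1 (-0.05, adjusted p = 0.810) were smaller, and both genes overlapped between genotypes.

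The core of the quinone module includes Ndufs7, at the pocket for ubiquinone, Ndufs8, which binds iron-sulfur clusters on the way there, and Ndufs3. Ndufs8 was at 58.8, 72.0 and 55.1 CPM in Rpl22-/- and 53.5, 50.2 and 45.8 CPM in Rpl22+/+. Its libraries did not overlap, by a narrow margin (log2 fold change 0.31, SE 0.110, adjusted p = 0.103). Ndufs7 and Ndufs3 overlapped between genotypes, with log2 fold changes of 0.05 and -0.10.

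Among the accessory subunits, 25 of the 28 tested had estimates above 0, 8 rose and the median log2 fold change was 0.28. With length and GC trends removed and replicate number added to the model, that median was 0.15, its lowest in any analysis. Accessory transcripts had a median length of 747.5 bases, against 1623 bases in the nuclear core. Over the whole table shorter transcripts tended to be higher in Rpl22-/-. Whether core and accessory subunits differ from each other was not tested, nor was the part of transcript length in it.

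Those that attach near the NADH-oxidising tip gave 4 of the 8 genes, out of 7 tested. Ndufa7, an accessory subunit at the side of the tip, lies at chr17:33824572-33838317 on the plus strand (GRCm38). It was at 54.7, 63.9 and 57.4 CPM in the Rpl22-/- libraries and at 41.7, 37.7 and 37.8 CPM in the Rpl22+/+ libraries. The lowest Rpl22-/- library was well above the highest Rpl22+/+ library. Ndufa7 rose by 0.59 on the log2 scale (SE 0.0990, adjusted p = 0.00514).

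Ndufa12 (chr10:94198720-94221443, plus strand) binds where the tip joins the rest of the matrix arm, at a site that the assembly factor Ndufaf2 holds earlier in assembly. Its levels were 68.0, 94.6 and 73.8 CPM in Rpl22-/- and 52.4, 52.2 and 43.4 CPM in Rpl22+/+. Rpl22-/- replicate 2 stood highest, and no library of one genotype reached the other. The log2 fold change was 0.67 (SE 0.120, adjusted p = 0.00701).

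Ndufs4 (chr13:114287795-114388258, minus strand) holds the NADH-oxidising tip to the rest of the complex, and its loss in mice and people causes a Leigh-like encephalopathy. It was at 62.6, 65.8 and 85.0 CPM in Rpl22-/- and 52.6, 49.8 and 43.1 CPM in Rpl22+/+. Here Rpl22-/- replicate 3 was the high library, and the other two were closer to the Rpl22+/+ range. The log2 fold change was 0.55 (SE 0.118, adjusted p = 0.0165).

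Ndufs6 (chr13:73319838-73328542, minus strand) binds zinc at the same junction. It was at 28.4, 39.2 and 30.5 CPM in Rpl22-/- and 23.9, 23.4 and 17.2 CPM in Rpl22+/+. The genotypes did not overlap, although Rpl22-/- replicates 1 and 3 were only a few CPM above the highest Rpl22+/+ library. Its log2 fold change was 0.60 (SE 0.153, adjusted p = 0.0338), the call nearest to the threshold among the 8. It was lost when any library other than Rpl22-/- replicate 1 was left out, and when trends on transcript length or GC content were removed.

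The other 3 accessory subunits near the tip did not pass. Ndufv3 differed without overlap (0.31 on the log2 scale, adjusted p = 0.0964), while Ndufa6, at 0.15, and Ndufa2, at -0.05, overlapped. Both accessory subunits of the quinone module overlapped too. Ndufa9, which binds a nucleotide cofactor, was at 69.8, 87.2 and 72.3 CPM in Rpl22-/- and 72.1, 76.3 and 64.6 CPM in Rpl22+/+ (log2 fold change 0.10, adjusted p = 0.595), and Ndufa5 gave -0.13 (adjusted p = 0.645).

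Next to the matrix arm, the membrane arm carries 9 accessory subunits, and all 9 estimates were above 0, with 3 genes that rose. Among them were the 3 highest fold changes of the complex. That of Ndufc1 (0.02) turned negative in 8 of the 18 other analyses run and that of Ndufc2 (0.04) in 6.

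Ndufa1 (chrX:37187588-37191163, minus strand) is a small membrane protein required for the membrane arm to assemble, and in people it is an X-linked disease gene. Its levels were 31.6, 50.1 and 58.7 CPM in Rpl22-/- against 23.1, 25.0 and 17.2 CPM in Rpl22+/+. Rpl22-/- replicate 1 lay nearer to the Rpl22+/+ libraries than to its own group. Ndufa1 rose by 1.10 on the log2 scale (SE 0.189, adjusted p = 0.00566), or 2.14-fold.

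Ndufa11 (chr17:56717767-56722141, plus strand) binds at the bend of the complex and helps to stabilise it within supercomplexes. It was at 31.9, 52.8 and 51.6 CPM in Rpl22-/- and 24.9, 26.6 and 22.5 CPM in Rpl22+/+. As with Ndufa1, replicates 2 and 3 of Rpl22-/- were high and replicate 1 was just above the Rpl22+/+ range. The log2 fold change was 0.88 (SE 0.161, adjusted p = 0.00798).

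Ndufa3 (chr7:3617373-3620327, plus strand), a single-pass membrane subunit, had the smallest adjusted p of the complex. It was at 68.7, 90.1 and 70.8 CPM in Rpl22-/- and 45.5, 44.6 and 36.5 CPM in Rpl22+/+. Every Rpl22-/- library was far above every Rpl22+/+ library, replicate 1 included. The log2 fold change was 0.85 (SE 0.118, adjusted p = 0.00125), or 1.81-fold.

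The other 6 subunits of this region were Ndufa8 (log2 fold change 0.27, adjusted p = 0.0962, no overlap), Ndufs5 (0.28), Ndufa13 (0.15), Ndufa10 (0.11), Ndufc2 and Ndufc1, and from Ndufs5 on they overlapped between genotypes.

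At the far end of the membrane arm 10 accessory subunits were tested, and 9 estimates were above 0. Only 1 gene passed the threshold there, but most of the estimates lay close together. In 7 of the 10 the Rpl22-/- libraries were all higher (13.3% of all genes), and 8 had an unadjusted p below 0.05 upward (11.6% of all genes).

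Ndufb3 (chr1:58586384-58595964, plus strand), a subunit of this far region, was the gene that passed. It was at 50.9, 63.5 and 59.9 CPM in Rpl22-/- and 42.6, 39.4 and 35.7 CPM in Rpl22+/+. Its genotypes were apart, and the log2 fold change was 0.56 (SE 0.109, adjusted p = 0.0104).

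Just outside the threshold stood Ndufb8, a subunit often used to judge assembled complex I on blots, at 40.6, 42.2 and 42.5 CPM against 34.3, 31.9 and 31.9 CPM (log2 fold change 0.35, SE 0.101, adjusted p = 0.0541). Ndufb11, encoded on the X chromosome, followed at 0.30 (adjusted p = 0.0618). The log2 fold changes of Ndufb4, Ndufb5 and Ndufb10 were 0.34, 0.29 and 0.28, with adjusted p between 0.0781 and 0.104. Ndufb9 (0.21), Ndufb7 (0.22) and Ndufb6 (0.06) had larger adjusted p.

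Ndufb2 was the exception in this region. It was at 11.6, 7.99 and 10.7 CPM in Rpl22-/- and 14.8, 12.9 and 14.0 CPM in Rpl22+/+. Its levels without Rpl22 were all the lower ones, on 96 to 193 reads per library, and the difference of -0.46 on the log2 scale (SE 0.169, adjusted p = 0.118) did not pass.

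Ndufab1, the acyl carrier protein that complex I borrows from mitochondrial fatty acid synthesis and binds in both arms, was the other gene with all Rpl22-/- libraries lower. It was at 75.1, 72.2 and 57.2 CPM in Rpl22-/- and 83.4, 78.2 and 77.9 CPM in Rpl22+/+. The margin was small, and the difference of -0.23 on the log2 scale (SE 0.103, adjusted p = 0.202) did not pass. Ndufa4 was at 124, 145 and 111 CPM against 127, 121 and 107 CPM, overlapping in both directions (log2 fold change 0.10, adjusted p = 0.627).

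**Figure D2:**
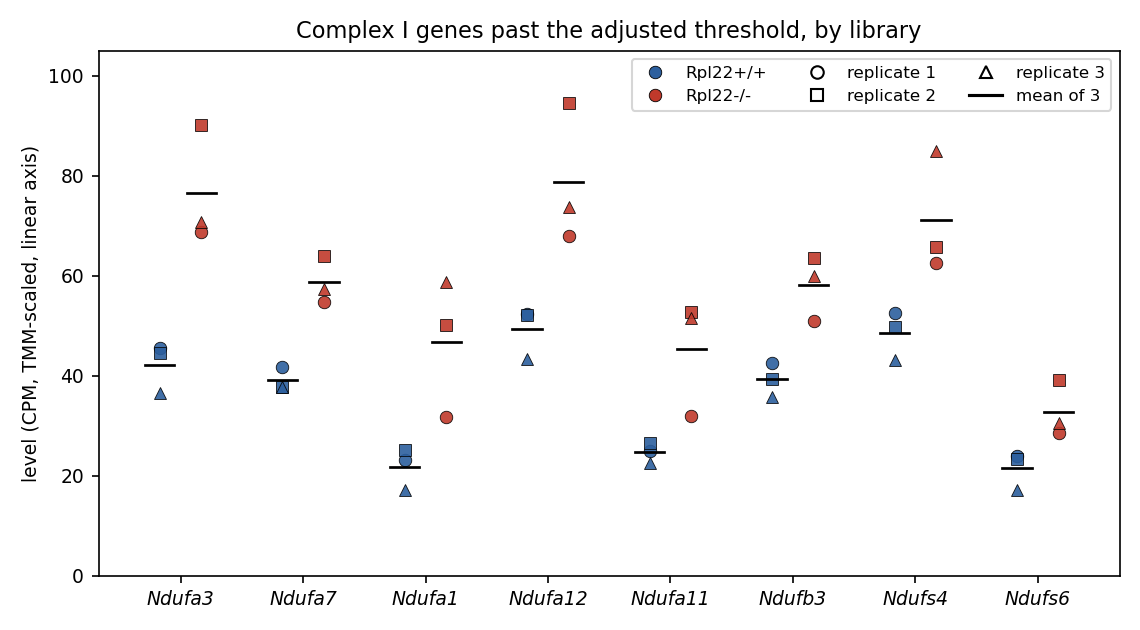
Level in CPM (y axis, linear) of the 8 nuclear complex I genes past the threshold in each of the 6 libraries. Symbols show the replicate and a bar the mean of 3. No gene overlaps between genotypes, and Rpl22-/- replicate 1 (red circle) is the lowest Rpl22-/- library for all 8, as for Ndufa1 at 31.6 CPM.

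The Rpl22-/- libraries were not alike. Replicate 1 was the lowest of the 3 for all 8 genes that rose, replicate 2 was the highest for 6 of them and replicate 3 for Ndufa1 and Ndufs4. Over all 36 nuclear subunits replicate 2 had the highest sum and replicate 3 the lowest. Without replicate 3, 3 genes passed (Ndufa3, Ndufa7 and Ndufa12). Without replicate 2, 7 of the 8 passed, all but Ndufs6. Without replicate 1, 11 passed, with Ndufv2, Ndufb8 and Ndufb11 added to the 8. The calls of Ndufa1, Ndufa11 and Ndufb3 were lost in no other analysis than the one without Rpl22-/- replicate 3, where their adjusted p were 0.0561, 0.0644 and 0.0628. The call of Ndufs4 was lost without Rpl22-/- replicate 3, Rpl22+/+ replicate 2 or Rpl22+/+ replicate 3.

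**Figure D3:**
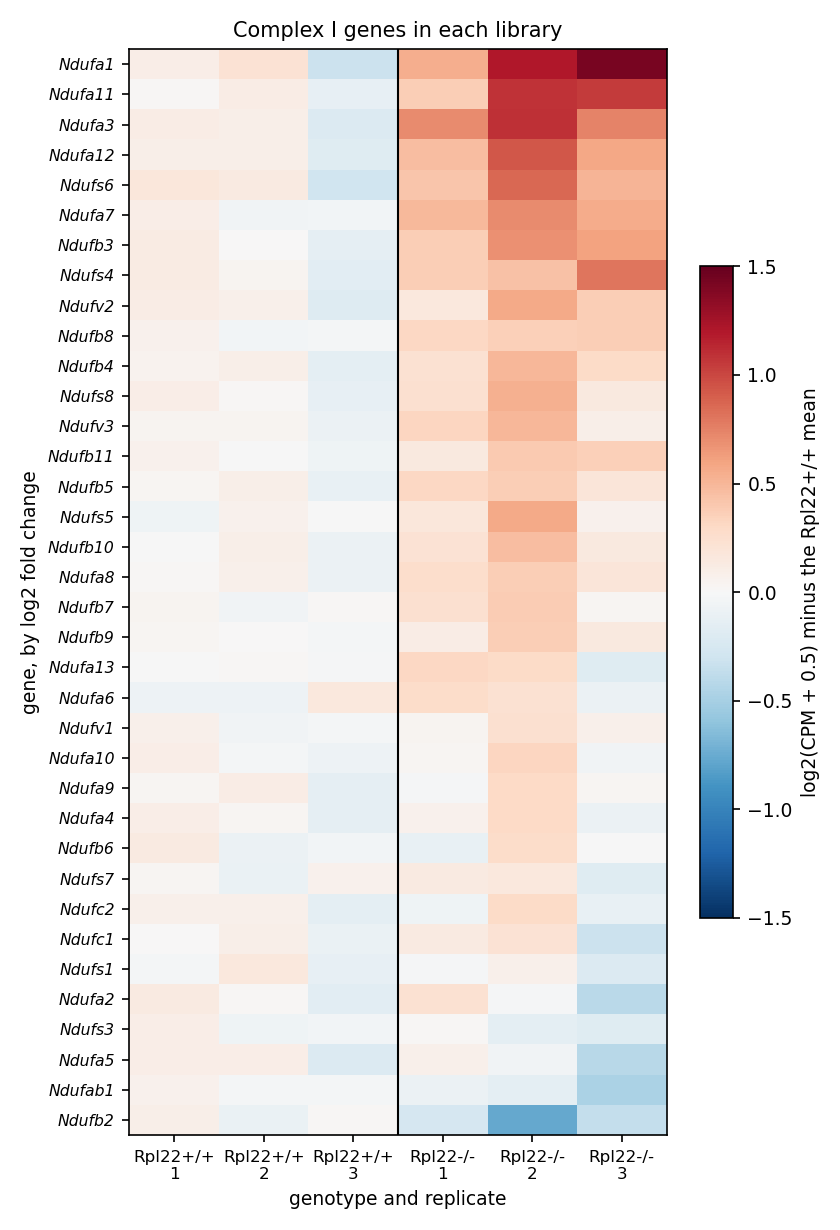
36 of the 37 genes tested (rows, ordered by log2 fold change) in each library (columns), coloured by log2(CPM + 0.5) minus the mean of the 3 Rpl22+/+ libraries. The top rows are red in all 3 Rpl22-/- libraries, palest in replicate 1, and the bottom rows, Ndufab1 and Ndufb2, are blue in all 3.

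Per base of transcript, nuclear core and accessory subunits were at like levels in Rpl22+/+ HSCs. There the median over the 37 genes was 49.2 RPKM (CPM per kilobase of the principal transcript), and core and accessory subunits had medians of 49.6 and 48.6 RPKM. The 8 genes that rose started at a median of 48.3 RPKM and reached 79.7 RPKM in Rpl22-/-, while the other 29 went from 49.2 to 54.7 RPKM. Ndufa1 went from 52.0 to 112 RPKM and Ndufa3 from 82.0 to 149 RPKM. The lowest level, 3.19 RPKM for Ndufb2, rests on an annotated transcript of 4371 bases, the longest of the 37.

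Most complex I genes have short transcripts, and over the whole table shorter transcripts tended to be higher in Rpl22-/-. Of genes with a transcript of at most 800 bases 9.29% rose, of those over 800 and up to 2000 bases 5.58%, and of longer ones 1.93%. Among the complex I genes 6 of 16, 2 of 17 and 0 of 4 rose in these classes. The median log2 fold change of the 16 shortest was 0.28 against 0.10 for all genes of that length. Of the 17 in the middle class it was 0.27 against 0.07, and of the 4 longest -0.14 against -0.03. With each library's trend on length and GC content removed, 8 complex I genes still passed, 7 of them from the list above, with Ndufv2 in place of Ndufs6, but the median over the 37 was 0.06 and 24 of the 37 estimates were above 0. The part of the length trend in the higher levels was not tested further.

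**Figure D4:**
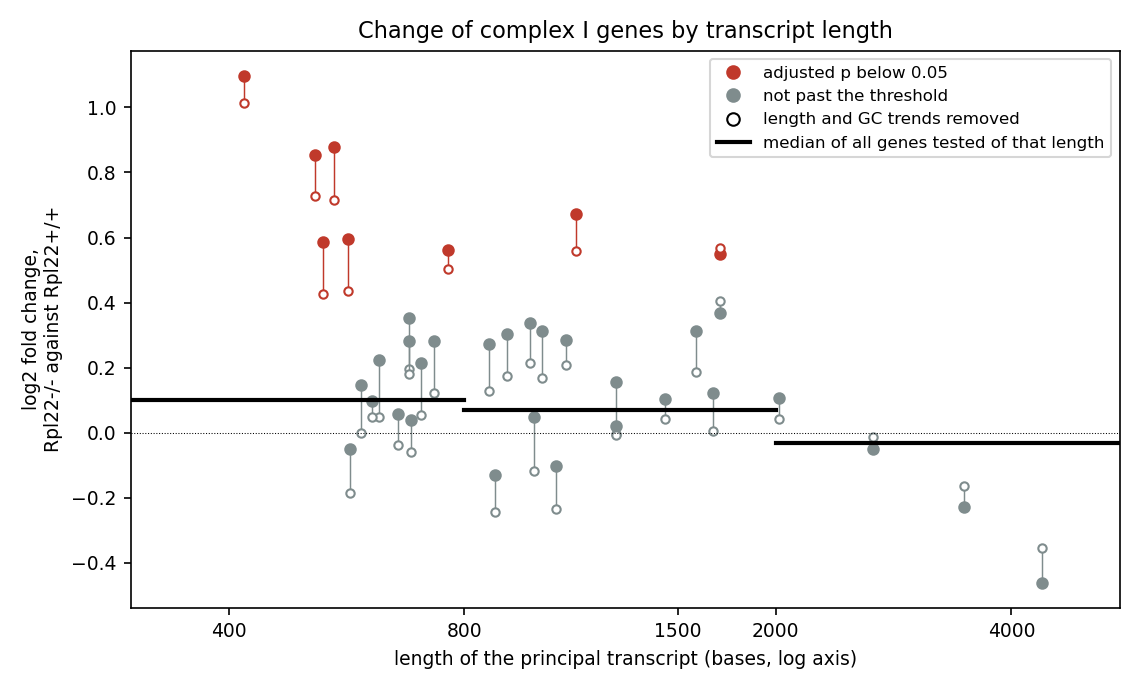
Log2 fold change (y axis) of 36 of the 37 genes against the length of the principal transcript in bases (log axis), as measured (filled) and with each library's trends on length and GC content removed (open), with black lines at the median of all genes in each length class. The 8 red genes remain above 0.4 with the trends removed, whereas many grey genes move towards 0.

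Complex I genes have many processed copies in the mouse genome, which could take or lend reads. The transcripts of 14 of the 38 genes matched 33 annotated copies at 90% identity or more over at least 80% of the copy. Of these copies 11 had a row of their own in the table, and none held more than 6 reads in any library. Among them was Gm15920, 99.5% identical to Ndufa12. Reads aligned to more than 1 place were assigned to no gene (7.49% to 8.23% of each library's counts). Low counts on a copy's row therefore cannot show that no reads were lost to it. For copies without a row, among them 14 short ones of Ndufa1, the sharing of reads could not be checked either. Where genes overlap on opposite strands their reads cannot be told apart, as the strand setting of the counting was not stated. Ndufb5 shares 616 bases of exon with Mrpl47, a mitochondrial ribosomal protein gene that rose (log2 fold change 0.41, adjusted p = 0.0190), and among the 8 genes that rose the overlaps were 70 bases for Ndufa11 with Vmac, 30 bases for Ndufs6 with Mrpl36 and 4 bases for Ndufa3 with Tfpt.

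Promoters of respiratory genes are known to hold sites for the factors NRF1, YY1 and the ETS family, and the motif letters were looked up on both strands from 250 bases before to 50 bases after each start in RefSeq (GRCm38.p6), a search chosen after the values were seen. A promoter was found for 33 of the 38 genes, the 8 that rose included. The YY1 letters AAGATGGC were in 7 of the 33 (21.2%), against 3.19% of 27025 genes, and 3 of the 7 were genes that rose (Ndufa3, Ndufs4 and Ndufs6). In all 7 the letters lay in the direction of the gene and their ATG was the annotated start codon. The NRF1 palindrome was in the promoter of Ndufa11 alone, against 1.07% of genes, and the ETS letters CCGGAAG were in 4 (12.1%, against 9.93%), none of which rose. The YY1 windows of the genes that rose are given in the direction of the gene, with the motif in capitals. Those of Ndufa3 (chr7:3617384-3617413, plus strand), Ndufs4 (chr13:114388045-114388074, minus strand) and Ndufs6 (chr13:73328433-73328462, minus strand) span the start codon. A match shows the letters and not a bound factor.
Ndufa3: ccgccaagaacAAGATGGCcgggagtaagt
Ndufs4: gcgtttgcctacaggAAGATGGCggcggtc
Ndufs6: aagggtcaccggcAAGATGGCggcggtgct

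The membrane core of complex I is encoded in mitochondrial DNA, and there 4 of 6 genes tested rose and 1 fell. mt-Nd1 rose from 1446 ± 164 to 2185 ± 461 CPM (SD, n = 3 each; log2 fold change 0.60, adjusted p = 0.0225). mt-Nd2, mt-Nd5 and mt-Nd6 rose by 0.51, 0.45 and 0.50 on the log2 scale, and mt-Nd4 was at 0.10 (adjusted p = 0.625). Of the genes tested here mt-Nd6 alone lies on the minus strand. As the strand setting of the counting was not stated, reads of the opposite strand cannot be told apart on its row. mt-Nd3 fell from 141 ± 11.6 to 93.9 ± 26.6 CPM (SD, n = 3 each; log2 fold change -0.58, adjusted p = 0.0368), a call that DESeq2 did not make. None of these 5 calls held without Rpl22-/- replicate 3, Rpl22+/+ replicate 1 or Rpl22+/+ replicate 3. Most mitochondrial transcripts are cut from a long shared precursor, so they are not independent of each other. The mitochondrial share of reads was 3.37% to 3.83% in Rpl22-/- and 3.06% to 3.48% in Rpl22+/+.

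No assembly factor, the proteins that build complex I without staying in it, passed the threshold. Of 16 on the list 15 were tested, 5 had estimates above 0, and DESeq2 and limma-voom called none either. An unadjusted p below 0.05 was reached by 2, both higher (11.6% of all genes tested), and the median log2 fold change was -0.06. Ecsit had the smallest p, at 25.3, 26.8 and 25.3 CPM against 21.4, 19.1 and 18.8 CPM (log2 fold change 0.38, adjusted p = 0.0756). Ndufaf2, the factor that gives way to Ndufa12, was at 18.1, 35.0 and 31.4 CPM against 23.7, 15.3 and 14.9 CPM. Its Rpl22-/- replicate 1 lay within the Rpl22+/+ range (log2 fold change 0.64, adjusted p = 0.0927).

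Genes of iron-sulfur cluster assembly, which supplies the cofactors of the matrix arm, had a median log2 fold change of 0.20 over 13 tested. None passed in any of the 3 tests and 2 had an unadjusted p below 0.05, both higher (11.6% of all genes tested), the smallest being Nfu1 (0.29, adjusted p = 0.0863). Of 12 transcription factors and coactivators of respiratory genes, none passed in any of the 3 tests either. An unadjusted p below 0.05 was reached by 1, Tfb1m (0.35, adjusted p = 0.131), against the same 11.6% of all genes tested. The median of the 12 was 0.06.

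In the other complexes 7 genes rose and 1 fell. None of 4 genes of complex II passed in any of the 3 tests, and the median was 0.01. An unadjusted p below 0.05 was reached by 1, Sdhb (log2 fold change 0.30, adjusted p = 0.122), against 11.6% of all genes tested upward. In complex III 2 of 9 rose, Uqcr11 by 0.91 (adjusted p = 0.00101) and Uqcrq by 0.49 (adjusted p = 0.0451), with a median of 0.09. In complex IV 4 of 10 rose (Cox8a by 0.58, Cox7b by 0.52, Cox7c by 0.39 and Cox6a1 by 0.38), and 1 fell (Cox5a, log2 fold change -0.65, adjusted p = 0.0154), with a median of 0.22. In ATP synthase 1 of 16 rose (Atp5d by 0.54, adjusted p = 0.00596), and the median was 0.02. These medians turned negative in at least 1 of the 18 other analyses for complex II (lowest -0.07), complex III (-0.02) and ATP synthase (-0.04), and for complex IV stayed at 0.11 or more. The calls of Uqcr11, Cox8a and Atp5d held in each of the 18 other analyses, while those of Uqcrq, Cox7b, Cox7c, Cox6a1 and Cox5a were lost when 1 of several libraries was left out, Rpl22+/+ replicates 2 and 3 in each case among them. With all libraries kept, Uqcrq and Cox7c were also lost under limma-voom and with library size alone as the scaling, and Uqcrq, Cox7c and Cox6a1 with length trends removed.

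**Figure D5:**
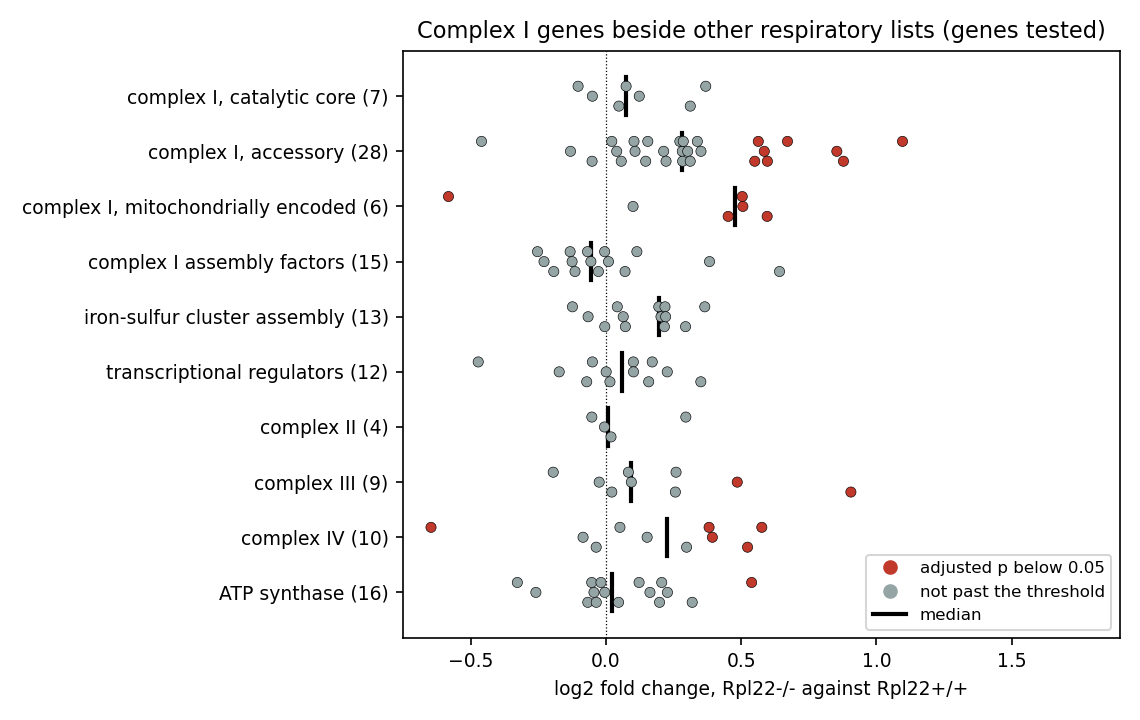
Log2 fold change (x axis) of each gene tested in the complex I groups and in other respiratory lists (rows, number of genes in parentheses), with a black line at the median of each row. Points past the threshold (red) lie in the accessory and mitochondrially encoded subunits of complex I and in complexes III and IV and ATP synthase, and none among assembly factors, iron-sulfur assembly, regulators or complex II.

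Markers of other blood cells moved with genotype too. All 6 megakaryocyte markers had estimates above 0 and 5 rose, and their summed level was 817 to 978 CPM in Rpl22-/- against 538 to 710 CPM in Rpl22+/+. The 7 neutrophil markers summed to 33.0, 139 and 41.5 CPM in Rpl22-/- and 24.7, 9.55 and 29.5 CPM in Rpl22+/+. Rpl22-/- replicate 2, the highest library for 6 of the 8 genes that rose, also had the highest sum here. Most of that sum came from Mpo (101 CPM) and Elane (20.2 CPM). Ngp, Camp and Ltf were highest in Rpl22-/- replicate 3, and S100a8 and S100a9 in Rpl22+/+ replicate 1. Of the 7 only Camp rose, on 2 to 47 reads per library. Summed erythroid markers were at 30.4 to 36.4 CPM and 31.7 to 40.7 CPM, and 1 of them, Car1, fell, from 10.2 ± 4.75 to 3.96 ± 1.22 CPM (SD, n = 3 each; log2 fold change -1.37, adjusted p = 0.0246; not called by limma-voom), while Epor was at 18.5 ± 0.726 CPM in Rpl22+/+ and 21.8 ± 1.51 CPM in Rpl22-/- (adjusted p = 0.281). Of the HSC markers 1, Fgd5, fell (log2 fold change -0.41, adjusted p = 0.0308). Summed B cell markers were at 24.6 to 28.2 CPM and 21.2 to 23.4 CPM, and T cell markers at 9.74 to 11.9 CPM and 7.28 to 9.45 CPM, with 1 T cell marker at 0 in every library. In bulk libraries more cells of a type and more RNA per cell cannot be told apart, and the part of these cells in the complex I levels was not tested.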

How the data were processed

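The authors checked reads with FastQC, aligned them to mm10 with TopHat2 (version 2.1.1 in the submitters' processing notes) and deposited whole-number HTSeq counts per gene without normalization. The counting annotation and strand setting are not given in the sources used here. The 5 rows of unassigned reads (58.6% to 60.9% of each library's counts) were left out. Counts were filtered with filterByExpr (minimum count 10), scaled by TMM and tested with the edgeR 4.0.16 quasi-likelihood test (R 4.3.3), Rpl22-/- against Rpl22+/+, without covariates, and adjusted by Benjamini-Hochberg over all genes tested. Alternatives used DESeq2 1.42.0 and limma 3.58.1 among others. The fit was tested on simulated data. Lengths, GC content and coordinates came from GENCODE M21 (GRCm38), in which 30876 of the 34573 symbols matched, 1871 of them by an older symbol, and copies were found with BLAST 2.17.0. Named in full were the complex I genes past the threshold and the smallest p of each structural group; of other lists, the genes past the threshold and the smallest p. The complex I genes and all lists were chosen with earlier results of these data known. The values of 1 complex I gene are not reported here by name; it is included in the counts and medians, except the count of changed signs.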

Additional observations from a re-analysis of the deposited data

How the results depend on the processing

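Complex I genes in this section are the nuclear genes chosen by name. Of 18 other analyses 12 kept all libraries, and 10 of these gave 7 to 9 complex I genes that rose, while DESeq2 gave 11. None of the complex I genes chosen by name fell in any of the 18. Without a filter on low counts 13 rose, and 1422 genes of the whole table changed, against 780. With GC trends removed 460 genes changed in all, and with length and GC trends removed 448, where the complex I median log2 fold change was 0.055 in place of 0.22. Leaving out 1 library gave 3 to 11 complex I genes that rose, and 127 (without Rpl22-/- replicate 3) to 1720 (without Rpl22-/- replicate 1) genes changed in all. Library size alone as the scaling called 850 genes, of which 43.4% were higher, against 58.8%, and with GC trends removed 69.8% were. Same-numbered libraries did not deviate together (correlations of -0.10, 0.05 and 0.04), so the numbers were not taken to pair them; a replicate block gave 9 complex I genes that rose, with Ndufv2 added, and 904 in all. With the block and both trends removed 8 rose and the median was 0.053. None of the 8 genes changed sign in any analysis, and 12 others, none of them past the threshold, did.

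For these 12 the values of opposite sign were as follows, and the cause was not tested. With GC trends removed the log2 fold change was 0.0077 for Ndufs1 and -0.0348 for Ndufs7. With length trends removed it was -0.0063 for Ndufa4, -0.0464 for Ndufs7, -0.0447 for Ndufb6, -0.0628 for Ndufc2 and -0.0609 for Ndufc1. With both removed it was -0.0012 for Ndufa6, -0.0051 for Ndufa13, -0.1166 for Ndufs7, -0.0394 for Ndufb6, -0.0607 for Ndufc2 and -0.0074 for Ndufc1, and with the replicate block added -0.0017, -0.0117, -0.1185, -0.044, -0.0636 and -0.0127 for the same 6 genes. By library size alone it was -0.0057 for Ndufc2 and -0.0223 for Ndufc1, and limma-voom gave -0.0047 for Ndufc1. Over the analyses that left out 1 library, the value ranged from -0.0091 to 0.1815 for Ndufa10, -0.0013 to 0.1692 for Ndufa9, -0.0115 to 0.1842 for Ndufa4, -0.2365 to 0.0028 for Ndufa5, -0.1157 to 0.0316 for Ndufs1, -0.0116 to 0.1505 for Ndufs7, -0.0643 to 0.1428 for Ndufb6, -0.2076 to 0.1028 for Ndufa2, -0.0948 to 0.1151 for Ndufc2 and -0.0832 to 0.172 for Ndufc1.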
